A study of Mus musculus with 3 samples.

Results

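Complement components and receptors were read from single-cell RNA libraries of mouse blood. The set held 9 genes of the 32285 in the deposited matrices: C1qa, C1qb, C3, Cfb, Cfp, C5ar1, C3ar1, Cr2 and Cd55. They were chosen by symbol and described in monocytes, neutrophils and B cells gated by marker genes. Peripheral blood mononuclear cells (PBMCs) of female C57BL/6 mice were measured with 10x droplets, 1 library per group. The young mice were 8 weeks old and the aged mice 16 months old, and the labels give no treatment for either; the methods state that control mice received PBS by tail vein. The aged-GA mice were also 16 months old and received glycyrrhizic acid (GA), a licorice compound, for 1 month, by tail vein on alternate days. The young mice were purchased and the aged mice were reared by the laboratory, so age and source cannot be told apart. Several mice per group gave blood, and the sources do not say whether it was pooled for the library.

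Complement is a set of plasma proteins that coat targets for removal, attract white blood cells and open membranes. The classical pathway starts when C1q binds antibody or cell debris, and the alternative pathway is driven by C3 itself with factor B and properdin. Fragments of C3 and C5 then act on receptors of myeloid and B cells, while surface regulators such as CD55 protect the body's own cells. Most complement proteins of plasma are made in the liver, which these blood libraries do not hold.

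The young library held 58894294 UMIs (unique molecular identifiers, each a captured RNA molecule) in 10842 barcodes, the aged library 82260961 in 16038 and the aged-GA library 98155671 in 17332. The cell filters left 8851, 10238 and 12648 cells, and between 50 and 62 barcodes were shared by any pair of libraries. The gates gave 49 young, 802 aged and 220 aged-GA monocytes. They gave 12, 681 and 384 neutrophils, a cell type that PBMC isolation usually removes for the most part, and 2238, 3842 and 5085 B cells. Levels are CPM, the UMIs of a gene in every 1000000 UMIs of the same cells, with 95% Poisson intervals in parentheses that cover counting error only; 3' counts do not grow with transcript length. With 1 library per group no test was possible, and a difference between groups cannot be told apart from a difference between libraries. Markers that took no part in the gate were high in their own class: the 6 monocyte genes summed to 18120.1 to 28179 CPM in monocytes, 5455 to 6373 CPM in neutrophils and 824 to 1079.8 CPM in B cells, and the 6 neutrophil genes summed to 200438 CPM or more in neutrophils. Neutrophil genes were also found at a low level in the other classes, more so in the aged libraries, with sums of 7.40, 242 and 171 CPM in young, aged and aged-GA B cells. Red-cell genes in B cells summed to 1205, 8245 and 5929 CPM.

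The libraries differed in the kind of monocyte they held. Of young monocytes, 2 cells (4.08%) were classical and 47 (95.9%) nonclassical, by which of the lists of 5 classical and 5 nonclassical markers had more genes detected in the cell. Among aged monocytes 407 (50.7%) were classical and 382 (47.6%) nonclassical, and among aged-GA monocytes 62 (28.2%) and 153 (69.5%). Classical monocytes are the inflammatory, CCR2-bearing form, and nonclassical monocytes patrol vessel walls. Values of the members within a subset therefore stand beside those of all monocytes where their UMIs allow.

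The genes lie on 6 chromosomes. On the GRCm38 assembly with GENCODE M21, C1qa (chr4:136895917-136898803) and C1qb (chr4:136880129-136886187) are neighbours, separated by 9.73 kb, and Cr2 (chr1:195136811-195176716) shares its chromosome with Cd55 (chr1:130439027-130462744). C3 (chr17:57203970-57228136) shares its chromosome with Cfb (chr17:34856374-34862518). Cfp lies at chrX:20925454-20931555, C5ar1 at chr7:16246743-16259540 and C3ar1 at chr6:122847138-122856161. Every one of them is a protein-coding gene on the minus strand.

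The promoters of the 5 members with the most UMIs in the gated classes are printed, since their levels rest on the most molecules. RefSeq (GRCm38.p6) gave a window of 250 bases before to 50 bases after the start for 7 of the 9 members. C1qa and Cfb had no entry. Capitals mark matches on either strand to 5 short motifs, which did not overlap here: the TATA box TATAAA, found in 13.6% of all 32851 windows of this length, the PU.1 motif GAGGAA (28.3%), the C/EBP motif TTNNGCAA (10.8%), the EBF motif CCCNNGGG (13.7%) and the GC box GGGCGG (35.7%).
C3 promoter, chr17:57228087-57228386, minus strand: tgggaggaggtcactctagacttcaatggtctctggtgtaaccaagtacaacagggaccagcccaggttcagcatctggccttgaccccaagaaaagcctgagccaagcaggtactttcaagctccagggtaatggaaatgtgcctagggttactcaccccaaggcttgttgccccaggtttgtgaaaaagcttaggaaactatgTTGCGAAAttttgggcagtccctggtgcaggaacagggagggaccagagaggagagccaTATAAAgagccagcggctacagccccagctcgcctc
Cfp promoter, chrX:20931506-20931805, minus strand: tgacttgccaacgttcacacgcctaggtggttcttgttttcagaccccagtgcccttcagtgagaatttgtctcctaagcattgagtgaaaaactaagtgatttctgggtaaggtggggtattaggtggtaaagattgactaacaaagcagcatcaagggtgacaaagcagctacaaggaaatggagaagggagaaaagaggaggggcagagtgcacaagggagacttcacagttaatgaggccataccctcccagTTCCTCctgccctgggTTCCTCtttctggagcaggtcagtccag
C5ar1 promoter, chr7:16259289-16259588, minus strand: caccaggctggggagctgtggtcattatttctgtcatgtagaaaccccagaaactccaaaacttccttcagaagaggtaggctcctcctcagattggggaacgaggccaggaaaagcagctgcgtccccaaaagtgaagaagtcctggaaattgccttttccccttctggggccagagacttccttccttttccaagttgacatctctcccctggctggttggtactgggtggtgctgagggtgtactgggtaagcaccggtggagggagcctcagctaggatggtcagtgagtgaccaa
Cr2 promoter, chr1:195176670-195176969, minus strand: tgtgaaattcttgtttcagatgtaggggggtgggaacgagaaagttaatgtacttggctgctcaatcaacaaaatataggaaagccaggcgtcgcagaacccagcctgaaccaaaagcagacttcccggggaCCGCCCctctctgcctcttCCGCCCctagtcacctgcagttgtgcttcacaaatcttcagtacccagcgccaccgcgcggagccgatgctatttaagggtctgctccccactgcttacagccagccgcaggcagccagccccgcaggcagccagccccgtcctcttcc
Cd55 promoter, chr1:130462695-130462994, minus strand: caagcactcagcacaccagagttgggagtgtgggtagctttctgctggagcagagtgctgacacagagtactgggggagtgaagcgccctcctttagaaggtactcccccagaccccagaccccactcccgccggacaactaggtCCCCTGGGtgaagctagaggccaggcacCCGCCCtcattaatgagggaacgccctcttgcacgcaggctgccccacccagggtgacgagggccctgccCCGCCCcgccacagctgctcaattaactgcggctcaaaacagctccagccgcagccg
In these windows the C3 sequence held a C/EBP match, 45 bases before the annotated start, and a TATA match, 14 bases after it. The Cfp sequence held PU.1 matches 6 and 22 bases after the start, both on the opposite strand, and the C5ar1 sequence held none of the 5 motifs. Both B-cell genes held a pair of GC boxes, and Cd55 also held an EBF match 105 bases before the start. Such letters are a description of the window and say nothing of which factor binds there.

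**Figure D1:**
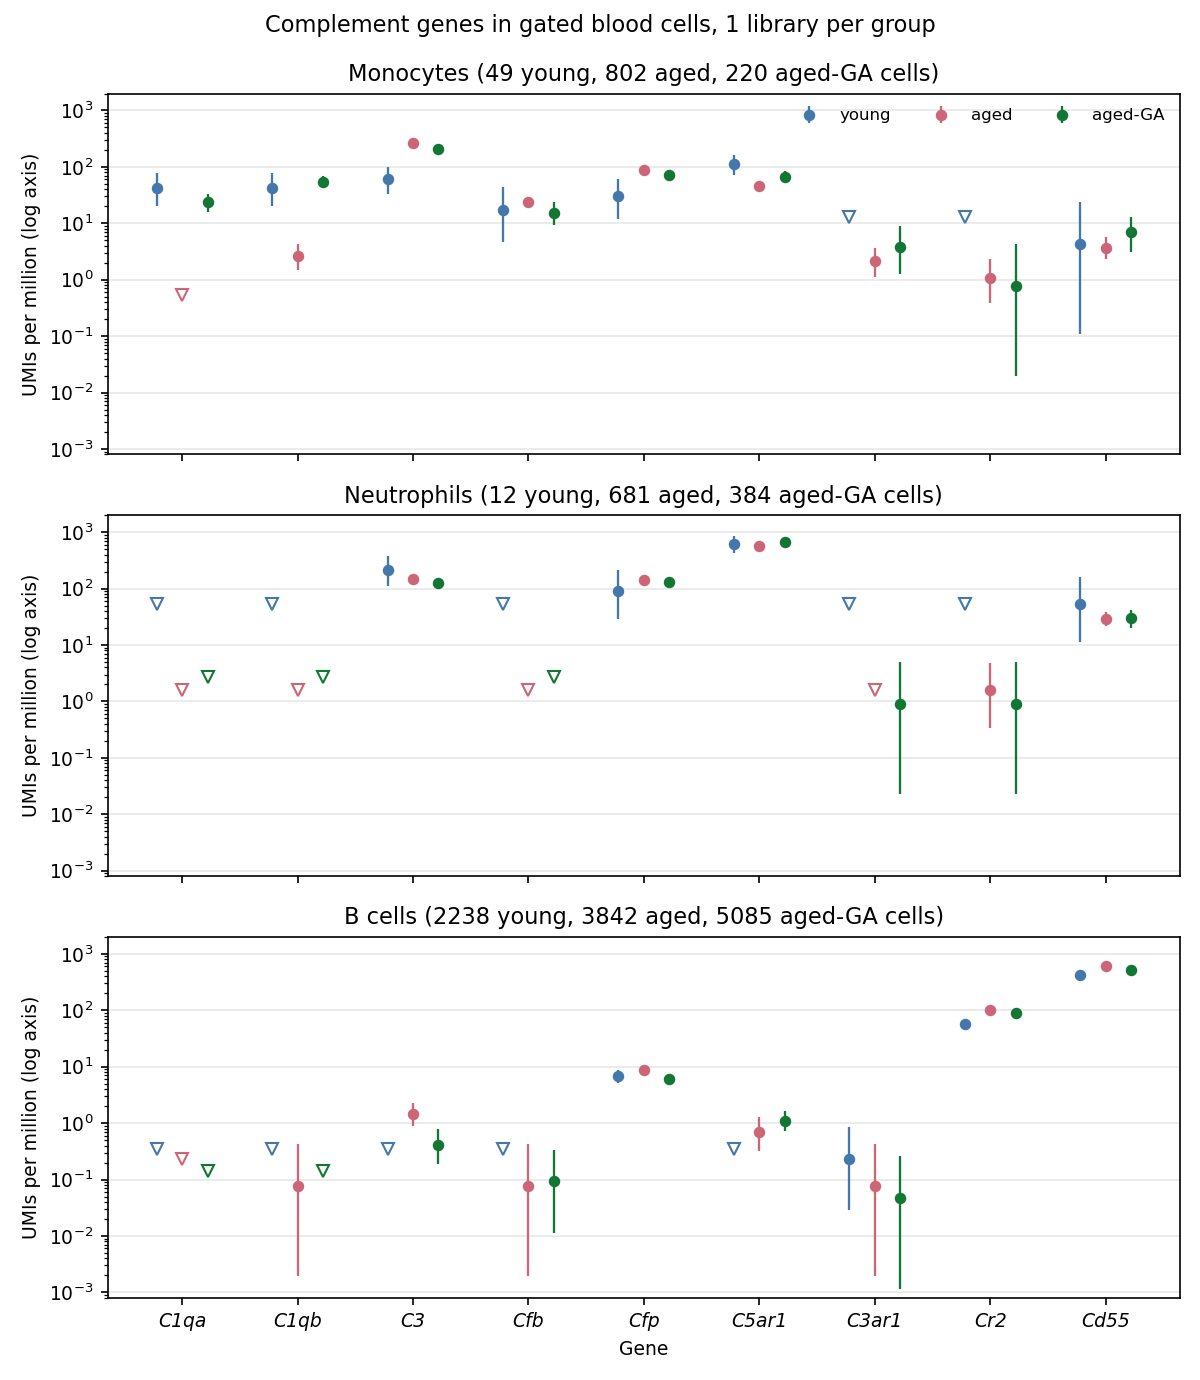
Levels of the 9 genes in gated monocytes, neutrophils and B cells, in CPM on a log axis, with 1 point per library and bars for the 95% Poisson interval; open triangles stand at the limit of 3 counts where no UMI was found. C5ar1 stood highest in neutrophils (612, 567 and 675 CPM), and Cr2 and Cd55 in B cells (56.0 and 414 CPM or more).

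C1qa and C1qb encode chains of C1q, the protein that starts the classical pathway and that tissue macrophages make in quantity. In blood their RNA was confined to a few cells. C1qa had 10 UMIs in the young library, 1 in the aged and 31 in the aged-GA library, and in each library all of them came from 1 cell. C1qb had 10 UMIs in 1 young cell, 48 UMIs in 21 aged cells and 110 UMIs in 8 aged-GA cells. A single aged-GA cell held 31 UMIs of C1qa, 56 of C1qb and 28 of C1qc, the gene of the remaining chain. It was gated as a classical monocyte, with 5 UMIs of the macrophage gene Mrc1 and 3 of Adgre1. It also held 9 UMIs of Ccr2 and 16 of Lyz2, and none of Vcam1 or Vsig4. Adgre1 was not particular to it, since 1 aged cell with C1qb held 7 UMIs. The young C1qa cell, also a classical monocyte, held 10 UMIs each of C1qa and C1qb and 6 of C1qc. Of the 21 aged cells with C1qb, 20 carried at least 3 monocyte markers and 1 was a gated B cell with a single UMI.

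In gated monocytes the C1qb level was 42.8 CPM (20.5 to 78.8) for young, 2.65 (1.48 to 4.38) for aged and 55.1 (43.1 to 69.4) for aged-GA mice. The ratio was thus 0.0619, aged over young, and 20.8, aged-GA over aged. These ratios rested on the cells above. Without the 1 cell of each library with the most C1q UMIs, the log2 ratio aged over young was 1.38 and that of aged-GA over aged 2.36. Both had 1 CPM added to each level. Young monocytes then held no C1qb UMI, and 3 counts in all 49 would be 12.8 CPM, above the aged level. The sign of the ratio aged over young was therefore not resolved. The ratio aged-GA over aged then rested on 16 UMIs in 1 aged-GA cell. With no marker of another class allowed in the gate, the log2 ratio aged-GA over aged was -3.01. There 55 aged-GA monocytes held 0 UMIs of C1qb and 189 aged ones 7, at 7.04 CPM. A single UMI in those aged-GA cells would be 4.04 CPM. The value thus came from the 1 CPM added, and a lower aged-GA level was not shown. C1qa was at 42.8 CPM in young against 23.7 CPM in aged-GA monocytes and had no UMI in 802 aged monocytes, where 3 counts would be 0.531 CPM. Neutrophils and T cells had no UMI of either gene, and B cells had 1 of C1qb. No level of C1q was therefore shared by a class of cells, and the spread of these genes over cells is given by the plot of UMIs per cell.

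**Figure D2:**
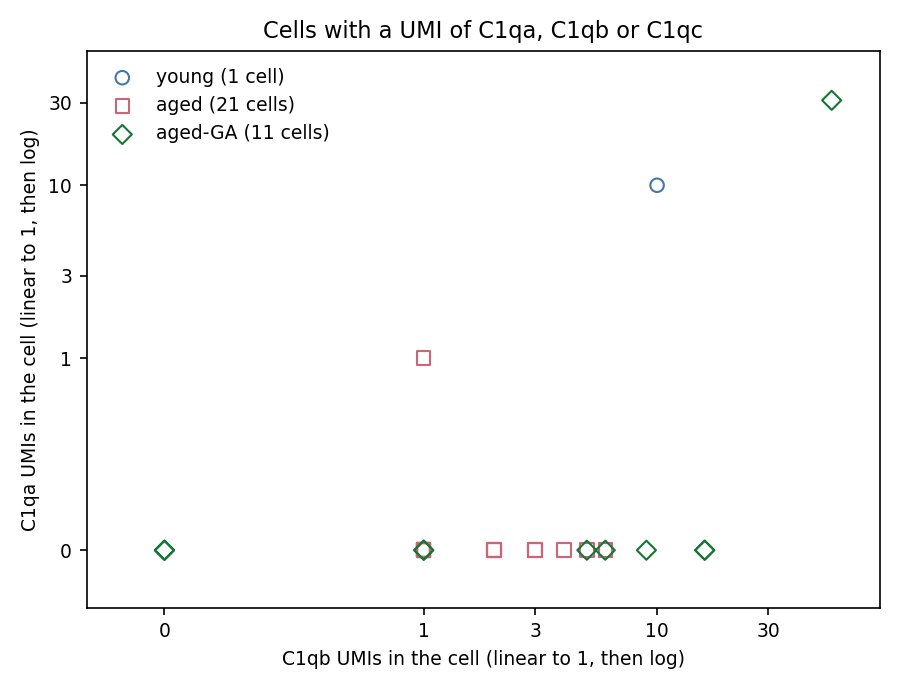
UMIs of C1qa and C1qb in each kept cell with a UMI of C1qa, C1qb or C1qc, on axes linear to 1 and logarithmic above; circles are young, squares aged and diamonds aged-GA cells, and cells with equal counts overlap. The highest aged-GA cell held 31 and 56 UMIs and the young cell 10 and 10, and all but 3 of the cells held no C1qa.

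C3, the central protein from which every pathway continues, was found in most aged monocytes. Its level in monocytes was 60 CPM (32.8 to 101) for young, 265 (252 to 279) for aged and 209 (185 to 235) for aged-GA mice. The young interval lay below both others. The aged level was 4.43-fold that of young (2.63 to 8.12), and the aged-GA level was 0.787 of the aged (0.690 to 0.896). C3 differed between the subsets, at 314 CPM in classical and 159 CPM in nonclassical aged monocytes, a ratio of 1.97 (1.72 to 2.25), and at 292 and 149 CPM in aged-GA monocytes, a ratio of 1.95 (1.52 to 2.52). Within nonclassical monocytes C3 was at 56.1 CPM (29.0 to 97.9) for young, 159 (141 to 179) for aged and 149 (123 to 179.9) for aged-GA mice. The aged over young ratio there was 2.84 (1.60 to 5.57), and the aged-GA over aged ratio was 0.936 (0.743 to 1.17), with an interval that held 1. In classical monocytes the aged-GA over aged ratio was 0.930 (0.783 to 1.1), and the 2 young cells held 2 UMIs.

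C3 was spread over many monocytes. A UMI was found in 512 of 802 aged monocytes (63.8%) and in 117 of 220 aged-GA monocytes (53.2%), and in 12 of 49 young ones (24.5%). The 10 cells with the most UMIs held 6.80% of the C3 UMIs of aged monocytes. Monocytes differed in depth, with medians of 4149, 7624 and 5130 UMIs; thinned to 500 UMIs a cell, the shares were 0%, 10.3% and 7.27%, and the interval of the young share reached up to 7.25%. In T cells, which should lack the gene, thinning left 0%, 0.110% and 0.0360% of cells with a UMI; the median T cell held 5006, 4411 and 5539 UMIs.

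Neutrophils held C3 as well, at 216 CPM (112 to 377) for young, 148 (131 to 167) for aged and 128 (108 to 150.5) for aged-GA mice. The 12 young neutrophils held 12 UMIs, 7 of them in 1 cell, and both ratios between libraries had intervals that held 1. In aged neutrophils C3 stood close to nonclassical monocytes, with a ratio of 1.07 for the monocytes (0.905 to 1.27), and below classical monocytes, with a ratio of 2.11 for the latter (1.85 to 2.42). Among the 328 aged neutrophils without a marker of any other class the level was 165 CPM. B cells held 0, 1.45 and 0.417 CPM and T cells 0.182, 1.03 and 0.245 CPM. These low levels moved alike in both lymphocyte classes and beside the neutrophil genes given above, and their source was not tested.

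Cfb encodes factor B, which joins C3 fragments to form the alternative pathway's enzyme. It was found in monocytes, at 17.1 CPM (4.67 to 43.9) for young, 24.2 (20.3 to 28.6) for aged and 15.3 (9.35 to 23.6) for aged-GA mice. The 3 intervals overlapped, and the ratios were 1.41 (0.540 to 5.26) and 0.632 (0.374 to 1.01). In aged monocytes Cfb was at 29.3 CPM in classical and 13.4 CPM in nonclassical cells, a ratio of 2.19 (1.39 to 3.59). In aged-GA monocytes all 20 UMIs lay in classical cells, at 36.9 CPM, and 7 of them in 1 cell. Nonclassical aged-GA monocytes had no UMI. The aged level was 3.29-fold their limit of 3 counts, and the interval of the ratio, aged-GA over aged, reached up to 0.406. Neutrophils had no Cfb UMI in any library. In aged neutrophils 3 counts would be 1.62 CPM, while the same neutrophils held 275 UMIs of C3. The monocyte level was 15.0-fold that limit, and the interval of the ratio, monocytes over neutrophils, began at 12.0.

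Cfp encodes properdin, which stabilizes that enzyme and is stored by neutrophils. Its level in neutrophils was 90 CPM (29.2 to 210.1) for young, 139.8 (123 to 158) for aged and 129 (108 to 151) for aged-GA mice, and the intervals overlapped. In monocytes it was 30 CPM (12.1 to 61.8) for young, 87.0 (79.5 to 95) for aged and 72.0 (58.2 to 88.1) for aged-GA mice, so that the aged level was 2.90-fold that of young (1.40 to 7.26). The subsets differed as well. Classical cells held 118 CPM and nonclassical cells 19.8 CPM in aged mice, a ratio of 5.97 (4.21 to 8.72), and 146 and 20.3 CPM in aged-GA mice, a ratio of 7.17 (4.09 to 13.4). The 2 young classical cells had no UMI. Within nonclassical monocytes the level was 32.7 CPM (13.1 to 67.4), from 7 UMIs, in young and 19.8 (13.7 to 27.6) in aged cells, and the ratio of 0.605 had an interval that held 1 (0.264 to 1.62). B cells held 6.81, 8.85 and 5.98 CPM of Cfp and T cells 0.981, 3.66 and 1.78 CPM.

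**Figure D3:**
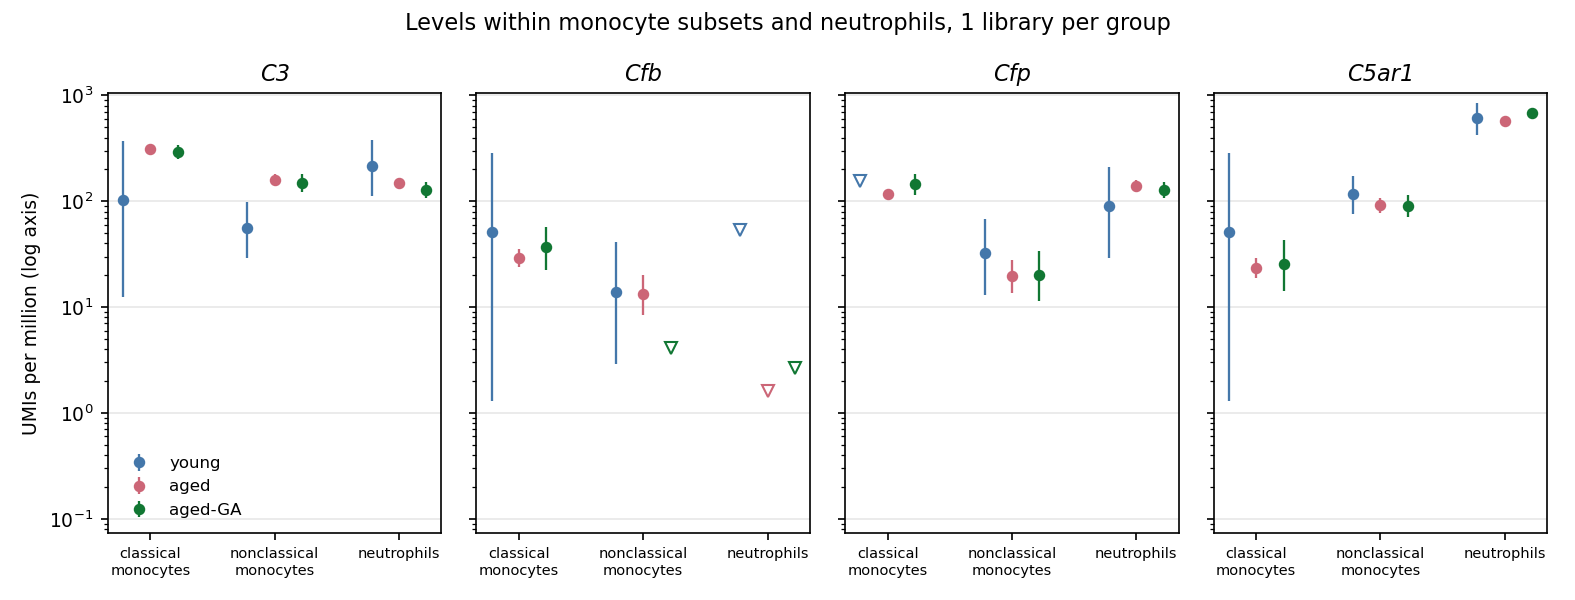
Levels of C3, Cfb, Cfp and C5ar1 in classical monocytes, nonclassical monocytes and neutrophils, in CPM on a log axis, with 95% Poisson intervals and open triangles at the limit of 3 counts where no UMI was found. Cfp stood at 118 CPM in classical and 19.8 CPM in nonclassical aged cells, and C5ar1 in the opposite order at 23.6 and 91.9 CPM.

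C5ar1 is the receptor for C5a, the fragment that draws neutrophils to sites of damage. Neutrophils held the highest level, 612 CPM (424 to 855) for young, 567 (533 to 602) for aged and 675 (628 to 725) for aged-GA mice. The aged over young ratio was 0.926 (0.659 to 1.34), and the aged-GA over aged ratio was 1.19 (1.08 to 1.31). The receptor was spread over the class: 509 of 681 aged neutrophils (74.7%) and 314 of 384 aged-GA neutrophils (81.8%) held a UMI, as did all 12 young ones. Thinned to 500 UMIs a cell, the shares were 25.0%, 28.3% and 33.3%, beside 0%, 0.165% and 0.0720% of T cells.

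Monocytes held less C5ar1 than neutrophils, 111 CPM (72.7 to 163) for young, 45.4 (40.1 to 51.4) for aged and 67.4 (54.0 to 83.0) for aged-GA mice. In the aged library the monocyte level was 0.0802 of the neutrophil level (0.0697 to 0.0920). The ratio between libraries was 0.408 (0.272 to 0.637), aged over young, and 1.48 (1.15 to 1.90), aged-GA over aged. Here too the subsets differed, in the order opposite to C3 and Cfp: classical cells held 23.6 CPM and nonclassical cells 91.9 CPM in aged mice, a ratio of 0.256 (0.196 to 0.334). Within nonclassical monocytes C5ar1 was at 117 CPM (75.6 to 172), 91.9 (78.2 to 107) and 90.9 (70.4 to 115), and both ratios, 0.787 (0.514 to 1.25) and 0.989 (0.732 to 1.32), had intervals that held 1. B cells held 0, 0.686 and 1.11 CPM, no more than T cells in 2 of the 3 libraries (0, 1.49 and 0.673 CPM).

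C3ar1, the receptor for the C3a fragment, was near the limit of detection in the 3 classes. It had 10, 76 and 30 UMIs over all kept cells of the young, aged and aged-GA libraries, ratios of 6.82 (3.51 to 14.8) and 0.280 (0.177 to 0.432). Cells outside every gate held none of the young UMIs, 76.3% of the aged and 73.3% of the aged-GA ones. In monocytes it had 0, 12 and 5 UMIs, in neutrophils 0, 0 and 1, and in B cells 2, 1 and 1. A difference between libraries within monocytes was not detectable at this depth, since 3 counts in young monocytes would be 12.8 CPM while the aged level was 2.12 CPM. The aged-GA over aged ratio was 1.80 with an interval of 0.498 to 5.5.

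Cr2 encodes complement receptor 2 (CD21), which binds C3 fragments on antigen and lowers the threshold for B cell activation. In the mouse the same gene also gives the receptor CR1 by splicing, and 3' counts do not separate the forms. It was at 56.0 CPM (51.1 to 61.3) for young, 103 (97.8 to 109) for aged and 89.7 (85.8 to 93.8) for aged-GA B cells, and no intervals overlapped. The aged over young ratio was 1.84 (1.66 to 2.05), and the aged-GA over aged ratio was 0.869 (0.811 to 0.933). Monocytes, neutrophils and T cells of the aged and aged-GA libraries held at most 1.62 CPM and young T cells 0.618 CPM. Young monocytes and neutrophils had no UMI, but in so few cells 3 counts would be 12.8 and 54.0 CPM. A UMI was found in 17.0%, 25.1% and 27.3% of B cells, and after thinning to 500 UMIs in 2.41%, 4.84% and 4.54%, beside 0.0386%, 0.165% and 0.108% of T cells. The median B cell held 3387, 3041 and 3736 UMIs.

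Cd55 encodes decay-accelerating factor, a membrane protein that takes apart the C3-cleaving enzymes on the body's own cells. It had the most UMIs of the set in B cells, 3520, 7826 and 10988. The levels were 414 CPM (400 to 427), 597 (584 to 610.3) and 509.7 (500.2 to 519) in young, aged and aged-GA B cells, again without overlap. The ratios were 1.44 (1.39 to 1.5), aged over young, and 0.854 (0.829 to 0.879), aged-GA over aged. On the log2 scale they were 0.53 and -0.23, and those of Cr2 in B cells 0.87 and -0.20. The median log2 ratios over all genes with at least 20 UMIs in B cells were 0.26 and -0.05. T cells followed at 64.2, 45.2 and 53.5 CPM, where the aged over young ratio was 0.704 (0.629 to 0.785) and the aged-GA over aged ratio 1.18 (1.05 to 1.33), both on the other side of 1 from B cells. Neutrophils held 54.0, 29.2 and 29.5 CPM with overlapping intervals, and monocytes 4.28, 3.71 and 6.89 CPM. A Cd55 UMI was found in 70.3%, 80.2% and 81.5% of B cells and in 24.6%, 17.5% and 24.0% of T cells. Thinned, the B cell shares were 18.2%, 25.7% and 22.5%.

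B cells were then split by a UMI of Fcer2a (CD23, of follicular B cells) or of Fcrl5, which is known to be high in marginal zone and some memory B cells. The Fcrl5 cells without Fcer2a numbered 37 young, 60 aged and 107 aged-GA cells. Their median depth was 5623, 5059 and 5705 UMIs, against 3442, 3070 and 3766 UMIs for Fcer2a cells without Fcrl5. Whether the Fcrl5 cells were marginal zone or memory cells was not tested, so their levels stand for neither type. Cr2 was higher in Fcer2a cells without Fcrl5, at 68.0, 113 and 100 CPM, than in Fcrl5 cells without Fcer2a, at 12.1, 54.4 and 40.0 CPM. The ratio of the latter to the former was 0.178 (0.0366 to 0.527) for young, 0.481 (0.288 to 0.756) for aged and 0.400 (0.265 to 0.581) for aged-GA mice. Cd55 followed the same order, with 435, 651 and 545 CPM against 141, 269 and 242 CPM. Within Fcer2a cells the aged over young ratio was 1.66 for Cr2 (1.45 to 1.92) and 1.5 for Cd55 (1.42 to 1.58). The aged-GA over aged ratio there was 0.885 for Cr2 (0.808 to 0.970) and 0.836 for Cd55 (0.805 to 0.869). The order of the libraries, young lowest and aged highest, was thus the same in all 3 groups of B cells for both genes, although the Fcrl5 intervals of the aged and aged-GA libraries overlapped and the young Fcrl5 cells held 3 UMIs of Cr2. Cells with a Cr2 UMI also held Cd55 slightly more often (74.7%, 82.0% and 84.4%) than those without (69.4%, 79.7% and 80.4%), and their median depth was higher, at 3684, 3192 and 4009 UMIs against 3328, 2995 and 3634.

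**Figure D4:**
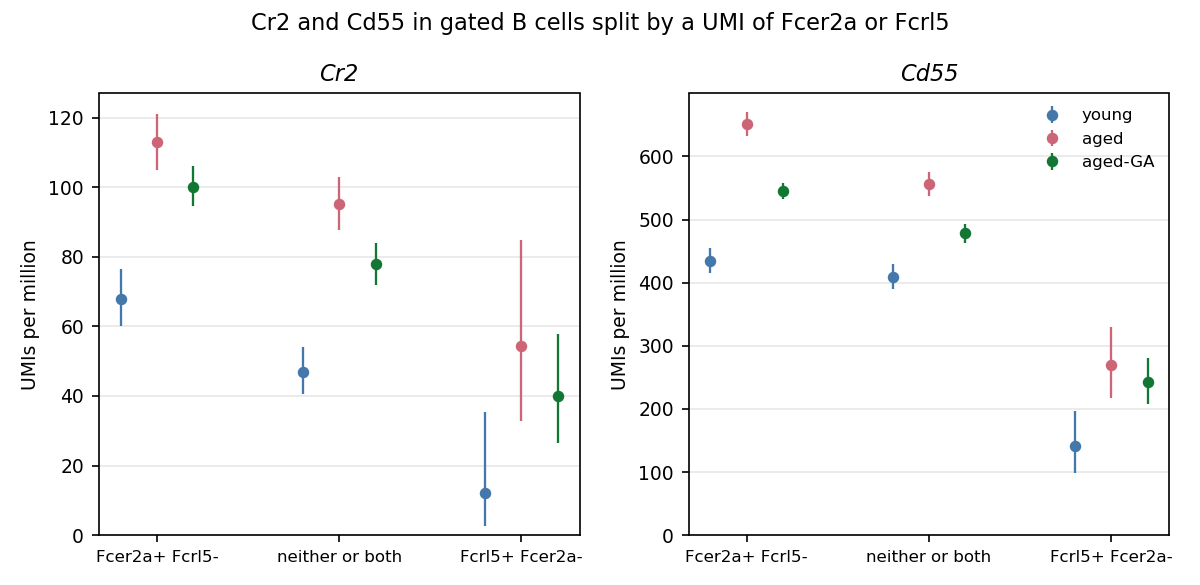
Levels of Cr2 and Cd55 in gated B cells with a UMI of Fcer2a and none of Fcrl5, with neither or both, and with a UMI of Fcrl5 and none of Fcer2a, in CPM with 95% Poisson intervals, 1 library per group. The aged point is the highest of each trio, and the Fcrl5 cells stand lowest (12.1 to 54.4 CPM for Cr2, 141 to 269 CPM for Cd55).

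The members were also counted by size of ratio. A member with at least 20 UMIs over both libraries was counted as changed at 2-fold or more after adding 1 CPM to each level, and the same count was taken over all genes. In monocytes, aged over young, 4 of 6 members reached 2-fold, where 24.6% of 9122 genes did: C3 and Cfp were higher, C1qb and C5ar1 lower. The median log2 ratio of the members was 0.16 and that of all genes 0.06. Within nonclassical monocytes 1 of 4 members, C3, reached it, where 15.5% of genes did. Aged-GA over aged, 2 of 7 members reached 2-fold in monocytes, C1qa and C1qb, where 4.35% of genes did, with medians of 0.56 and 0.09. All 31 aged-GA UMIs of C1qa and 56 of the 72 of C1qb lay in the same cell, so C1qa and C1qb do not count separately. In classical monocytes the same genes made 2 of 6, where 7.28% of genes did, and in nonclassical monocytes 1 of 4 did, Cfb, which was lower, where 2.99% of genes did. That Cfb count rested on 23 aged UMIs and no aged-GA UMI, and those of C1qa on 31 aged-GA UMIs and no aged UMI. Both genes thus passed the minimum of 20 UMIs through the library where they were high, and these counts are no support for a difference.

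In neutrophils none of the 4 counted members reached 2-fold in either comparison, where 44.9% of genes did, aged over young, and 3.43%, aged-GA over aged. The share of 44.9% rested on 12 young cells with 55543 UMIs, where 3 counts would be 54.0 CPM. The member medians were -0.32 and -0.05 and those of all genes 0.41 and 0.12. In B cells none of 3 members reached it, aged over young, where 6.15% of genes did, and none of 5, aged-GA over aged, where 0.323% did. The member medians in B cells were 0.53 and -0.23, beside 0.26 and -0.05 over all genes.

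Summed over all kept cells without regard to class, C3, Cfp and C5ar1 differed more between libraries than within monocytes or neutrophils. C3 was at 0.933 CPM for young, 67.7 for aged and 13.4 for aged-GA cells, ratios of 72.6 (54.1 to 99.7) and 0.198 (0.184 to 0.212). Cfp gave 14.0 and 0.329, and C5ar1 22.9 and 0.575. Cfb, with 5 young UMIs, gave 60.5 (25.7 to 187) and 0.0884 (0.0625 to 0.122), against 1.41 and 0.632 in monocytes. Cells outside every gate held none of its young UMIs, 59.1% of the aged and 45.2% of the aged-GA ones. Gated monocytes made up 0.554%, 7.83% and 1.74% of kept cells and gated neutrophils 0.136%, 6.65% and 3.04%. For Cr2 and Cd55, whose UMIs lay mostly in B cells, the aged over young ratios over all cells were 2.54 and 1.52, and the corresponding aged-GA over aged ratios 1.03 and 1.05. Within B cells the aged over young ratios were 1.84 and 1.44, and the aged-GA over aged ratios 0.869 and 0.854. A share of the UMIs lay in cells outside every gate: 31.1%, 50.4% and 57.7% of those of C3, and 17.9%, 19.4% and 21.1% of those of Cr2. Among them were 24, 730 and 280 cells with at least 3 monocyte markers and more than 1 marker of another class or over 10% haemoglobin, deeper than gated monocytes with medians of 7713, 10736 and 11083 UMIs. With 2 markers of each other class allowed, the monocyte C3 levels were 64.7, 273 and 204 CPM. With no marker of another class allowed they were 61.0, 181 and 157 CPM, in 28, 189 and 55 monocytes. In those aged monocytes Cfp was at 50.3 CPM in place of 87.0, and C5ar1 at 67.4 CPM in place of 45.4. The monocyte levels thus depended on the gate.

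**Figure D5:**
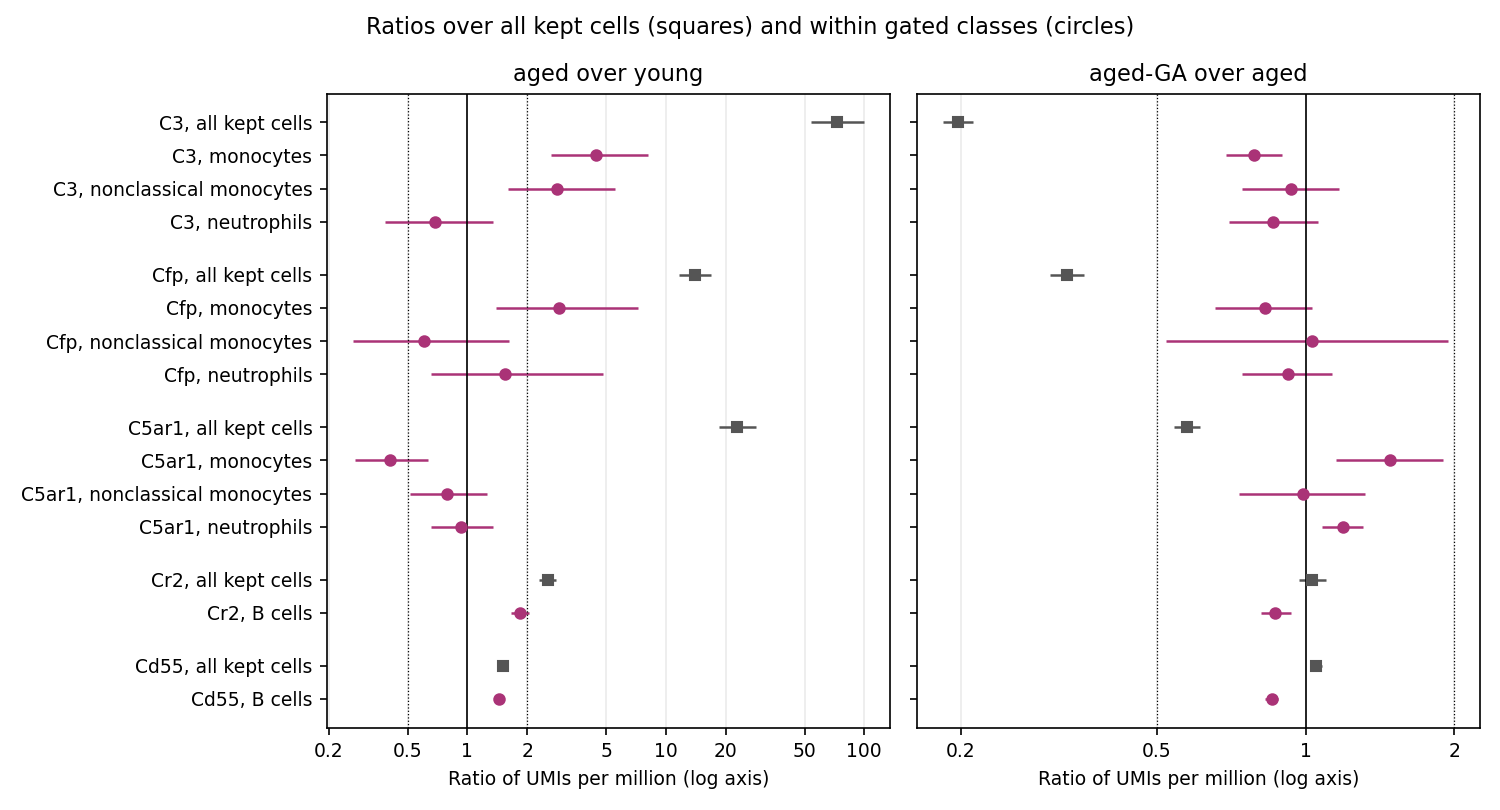
Ratios of CPM, aged over young on the left and aged-GA over aged on the right, on log axes with 95% exact intervals, for 5 genes over all kept cells (squares) and within gated classes (circles); dotted lines mark 2-fold. The ratio of C3, aged over young, was 72.6 over all cells, 4.43 in monocytes, 2.84 in nonclassical monocytes and 0.687 in neutrophils.

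Of 43 other genes of the complement system, few reached 20 UMIs. In monocytes 4 of 9 reached 2-fold, aged over young (24.6% of all genes), and 2 of 10, aged-GA over aged (4.35%). Within nonclassical monocytes none of 6 did in either comparison (15.5% and 2.99% of all genes). The highest were the integrin genes Itgb2 and Itgam, which form complement receptor 3, at 522 to 762 CPM and 340.4 to 348 CPM. Itgax, the alpha chain of complement receptor 4, was lower in aged than in young monocytes, at 45.8 and 116 CPM, with a ratio of 0.396 (0.266 to 0.613). Within nonclassical cells it stood at 143 and 126 CPM, and the ratio of 1.13 (0.758 to 1.75) held 1. Cd93, a receptor of monocytes, was at 30 CPM in young against 72.0 CPM in aged monocytes, with a ratio of 2.40 (1.15 to 6.01). Within nonclassical cells, with 11 aged and 6 young UMIs, the ratio lay on the other side of 1, at 0.228 (0.0774 to 0.752). C4b, whose product C4 serves the classical pathway, had 72 UMIs in 41 aged monocytes and none in young or aged-GA ones, at least 5.54-fold lower in aged-GA than in aged mice. In the 49 young monocytes, 2 of them classical, 3 counts would be 12.8 CPM, so a lower young level of C4b was not shown. It still counted among the genes at 2-fold, aged over young, through the 1 CPM added. Classical cells held 70 of the 72, and among them the aged-GA level was at least 3.27-fold lower. It has a near-identical copy, C4a, so its reads are uncertain. C1qc was 29.4-fold higher in aged-GA than in aged monocytes (11.5 to 96.4), with 28 of its 34 UMIs in 1 cell and all of them in classical cells.

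In neutrophils 3 of 6 of these genes reached 2-fold, aged over young (44.9% of all genes), and 1 of 8, aged-GA over aged (3.43%). Itgam stood at 576, 558 and 615 CPM and Itgb2 at 270.1, 485 and 486 CPM, followed in the aged and aged-GA libraries by Cr1l, which encodes a regulator of C3, at 65.9 and 68.8 CPM. In young neutrophils Cr1l had 1 UMI, below the 3 of the C5a-binding receptor gene C5ar2. The 3 genes past 2-fold, Itgax, Cd93 and Cr1l, had 0, 0 and 1 UMI in the 12 young neutrophils, where 3 counts would be 54.0 CPM. Clu, which encodes the regulator clusterin, was at 4.32 CPM in aged against 12.5 CPM in aged-GA neutrophils, a ratio of 2.90 from 8 and 14 UMIs (1.13 to 7.97).

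In B cells 1 of 8 reached 2-fold, aged over young (6.15% of all genes), and none of 11, aged-GA over aged (0.323%). The highest were Cr1l at 78.1, 94.7 and 105 CPM, C1qbp at 86.7, 90.5 and 84.6 CPM and Itgb2 at 25.4, 35.6 and 38.2 CPM. Itgam was at 0.470 CPM for young, 7.09 for aged and 5.01 for aged-GA B cells, a ratio of 15.1, aged over young (5.70 to 56.6). It moved beside the neutrophil genes in B cells (7.40, 242 and 171 CPM), and their part in it was not tested. None of the 7 genes of the terminal pathway, Hc and C6 to C9, reached 20 UMIs in these classes.

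Over 15 sums of classes and libraries with at least 50 cells, the gene whose level ran most like that of C3 was Gm9733 (Pearson's r of log2 levels 0.996), followed by Klra2 (0.991) and Ifi204 (0.991), among 7522 genes. For Cfp they were Wfdc17 (0.983), Pira2 (0.979) and Ninj1 (0.959), and for C5ar1 Trem1 (0.982), F630028O10Rik (0.977) and Csf3r (0.975), the receptor for granulocyte colony-stimulating factor. For Cr2 they were Rasgrp3 (0.99), Hs3st1 (0.986) and Snn (0.982), and for Cd55 Hvcn1 (0.968), Sfn (0.965) and Trp53i11 (0.920). The sums share 3 libraries and a few cell types, so these values describe which classes hold a gene. Young monocyte subsets and young neutrophils had fewer than 50 cells and gave no sum. For C1qb, with 88 UMIs, Thap11 (0.840), Tbc1d22a (0.812) and Rala (0.794) stood highest. Of those 88 UMIs, 56 lay in 1 aged-GA cell, so the values for C1qb do not describe a class. For Cfb, with 161 UMIs, Pnp (0.907), Thap11 (0.897) and Clta (0.889) stood highest.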

How the data were processed

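Blood mononuclear cells from each group gave 1 library with the 10x 3' version 3 kit. The values the authors deposited are unnormalized counts, the UMIs of every gene in every barcode. Cell Ranger 5.0.0 stands in the matrix headers, a different version stands in the methods, and the submitters' processing notes name mm10; the annotation is not given in the sources used here.

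The 9 members, the marker lists and the 43 other complement genes were chosen with earlier results of these data known. The study's limits were applied to each library: a minimum of 200 genes, no more than 90% of the highest gene number and no more than 7.5% mitochondrial UMIs. The study set them on the aggregated libraries and states other numbers of cells; taken over all libraries, the gene limit kept 8854, 10242 and 12648 cells in place of 8851, 10238 and 12648. A cell was gated to a class with at least 3 of its markers, at most 1 marker of each other class and at most 10% haemoglobin UMIs. No doublet caller was run; the gene limit and the gate stand in its place. UMIs were summed per class and library and given as CPM. Intervals of 95% were exact, Poisson for a level and binomial for a share or a ratio. A count of 0 is given with the level that 3 counts would make. A fold given as at least some value uses that level and leaves out the counting error of the other level. No test was run. Log2 ratios had a pseudocount of 1 CPM. Shares of cells with a UMI were also taken after thinning to 500 UMIs, and every barcode held that many.

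All members were described. Other complement genes with at least 20 UMIs were named if among the 3 highest of their class or at 2-fold or more, and for each member with at least 50 UMIs the 3 genes with the highest correlation, among genes with at least 1000 UMIs. A gene that the rule names in monocytes is not reported here. C1qc was also named, beside C1qa and C1qb, and Mrc1, Adgre1, Ccr2, Lyz2, Vcam1, Vsig4, Fcer2a and Fcrl5 describe cells. The gate and ratios were also run on simulated cells drawn from the summed profiles of gated aged cells. Those profiles had already passed the gate, so the run could not test how pure the gated classes are. It held no doublets and no groups as small as the young monocytes and neutrophils. Python 3.11.15, numpy 2.4.6, scipy 1.17.1, pandas 2.3.3 and matplotlib 3.10.9 were used. Alternatives changed the gate, the cell filters, the denominator, the pseudocount, the weighting of cells, the minimum of UMIs and the thinning.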

Additional observations from a re-analysis of the deposited data

How the results depend on the processing

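Under 13 alternatives, 283 of 306 recomputed log2 ratios of members moved by less than the counting error, 18 moved by more and 5 reversed. The counting error was the distance from the middle to an end of the main interval. Sparse members had wide intervals, so their ratios stayed within it most easily. A change of sign was counted as a reversal only where the main log2 ratio was at least 1 either way. Smaller ratios that changed sign were counted by the size of their move. Among these in monocytes, aged-GA over aged, were Cfp and Cfb. They were at -0.27 and -0.63, and at 0.30 and 0.33 in classical monocytes alone. C1qb in monocytes, aged over young, was 2.34 in nonclassical monocytes alone. It was 1.38 without the top C1q cell of each library, an alternative chosen after seeing the data. Aged-GA over aged it was -2.34 in nonclassical monocytes alone and -3.01 with no marker of another class. In each of these, 1 library held no C1qb UMI, so the value came from the 1 CPM added and no reversal was measured. In nonclassical monocytes 3 counts would be 14.0 CPM for young and 4.07 CPM for aged-GA mice, against an aged level of 4.07 CPM. Cfp, aged over young, was -0.70 in nonclassical monocytes alone. The count of members at 2-fold in monocytes, aged over young, was 4 and became 2 with the mean of per-cell CPM or with no marker of another class, 7 with no minimum beyond 1 UMI and 1 in nonclassical monocytes alone. Aged-GA over aged, it was 2 and became 4 with 2 markers of each other class, 0 with no marker of another class and 1 in nonclassical monocytes alone. In B cells, aged over young, it was 0 and became 1 with 2 markers of each other class, without the haemoglobin limit, with no minimum beyond 1 UMI or without the mitochondrial limit, each time through C3. In neutrophils, aged over young, it was 0 and became 1 without the haemoglobin limit and with no minimum beyond 1 UMI. The cause of the other changes was not tested. Classical monocytes alone, aged over young, and neutrophils with no marker of another class, aged over young, were left out as alternatives, with 2 and 6 young cells. A gene limit taken over all 3 libraries, chosen after seeing the data, left the same number of cells in every gate. It is among the 13 alternatives, and its ratios could not move. Few young cells limit the monocyte and neutrophil values, and sparse UMIs those of C1qa, C1qb, Cfb and C3ar1. No paired analysis was possible because each group had 1 library and the labels give no replicate numbers.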

Other observations

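Basophils, which carry receptors for complement fragments, were gated with the basophil list that otherwise served to leave cells out; this gate was chosen after its values were seen. It gave 0 young, 88 aged and 15 aged-GA cells. C3ar1 was at 87.4 CPM (52.6 to 136) in aged basophils, from 19 UMIs, and at 28.4 CPM from 1 UMI in aged-GA basophils. In the aged library this was 41.2-fold the level in monocytes (19.0 to 93.0). C5ar1 was at 239 CPM (179 to 314) in aged and 255 CPM (117 to 485) in aged-GA basophils, against 45.4 and 67.4 CPM in monocytes, ratios of 5.26 (3.83 to 7.11) and 3.79 (1.68 to 7.53). Cfp was at 69.0 CPM in aged basophils (38.6 to 114), and C3 had no UMI there, where 3 counts would be 13.8 CPM. The monocyte level of C3 was 19.2-fold that limit, and the interval of the ratio, basophils over monocytes, reached up to 0.0640. With 1 library per group these levels describe single libraries.

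Natural killer cells held Cd55 at 40.4, 26.2 and 27.3 CPM in young, aged and aged-GA mice and C5ar1 at 0, 1.54 and 8.63 CPM, the last from 6 UMIs.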
